A study of Mus musculus with 6 samples.

Results

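The control cultures of a knockdown experiment in vascular smooth muscle cells, which surround arteries and set their width by contracting, are described here by their baseline transcriptome. They are the 3 libraries whose titles and treatment label mark them as negative control, of 6 libraries in all. The remaining 3 libraries, transfected with an siRNA against Arid3a, enter none of the values below. The cells were mouse primary vascular smooth muscle cells bought from a commercial supplier, exposed to control transfection and incubated for 24 h. The labels give neither the vessel, strain, sex and age of the donor animals nor the passage. They name no separate cultures, so the spread between the 3 libraries may be technical. Elsewhere the labels mention exposure of the cells to angiotensin II, a peptide hormone that constricts arteries, and leave unstated whether it applied to these libraries. Polyadenylated RNA was captured from 1 µg of total RNA per library. The libraries held 19079970, 22189166 and 17057300 gene counts in control libraries 1, 2 and 3, and 3 values given together below keep that order. Levels are counts scaled to a library total of 1000000 (CPM). Values after ± are SDs over the 3 libraries.

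Smooth muscle cells of a healthy artery are quiescent and contractile. They express smooth muscle actin, myosin heavy chain, calponin and transgelin under the control of serum response factor and its coactivators, the myocardin family. In culture and in injured vessels they can lower these contractile genes, divide, migrate and secrete extracellular matrix, proteases and cytokines, which is called phenotypic switching. Many of the genes that then rise, among them collagens, fibronectin and osteopontin, are also made by fibroblasts.

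The control libraries contained abundant transcripts for matrix, cytoskeleton, protein synthesis and acute-phase proteins, while several transcripts of contractile smooth muscle had few counts. Of 23197 rows in the count table, 11720 (50.5%) reached 1 CPM in all 3 libraries, which is called expressed below, and 1718 rows had no count in any of them. The expressed genes comprised 11029 protein-coding genes and 439 long non-coding RNA genes. Their median level was 34.9 CPM, against 1.51 CPM over all rows. A mean of at least 1000 CPM was reached by 90 genes, a further 2293 lay between 100 and 1000 CPM, and 6705 lay between 10 and 100 CPM. Counts were spread over many genes: the most abundant 928, 888 and 950 genes held 50% of the counts. The 20 genes with the highest mean held 7.69% (Wilson 95% interval 7.68% to 7.70%), 7.81% (7.80% to 7.82%) and 7.44% (7.43% to 7.45%). Such intervals cover counting error only.

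The 4 genes taken as markers of these libraries were read before the rest. Acta2 (ENSMUSG00000035783, mm10 chromosome 19, 34241090 to 34255590, minus strand), which encodes smooth muscle alpha-actin, had 9317, 13064 and 9406 reads, or 488, 589 and 551 CPM. Control library 1 was lowest for Acta2 and control library 2 highest, by 1.21-fold, and the mean was 543 ± 50.8 CPM. Cald1 (ENSMUSG00000029761, mm10 chromosome 6, 34598500 to 34775473, plus strand), which encodes the actin- and myosin-binding protein caldesmon, had 1425, 1444 and 1386 CPM. The Cald1 libraries lay within 1.04-fold of each other. Fn1 (ENSMUSG00000026193, mm10 chromosome 1, 71585520 to 71653200, minus strand), which encodes the matrix glycoprotein fibronectin, had 5341, 3981 and 5508 CPM. Control library 2 was the lowest for Fn1, and the mean of 4943 ± 837 CPM ranked 3 among all rows. Saa3 (ENSMUSG00000040026, mm10 chromosome 7, 46711998 to 46715700, minus strand), which encodes serum amyloid A3, an acute-phase apolipoprotein made outside the liver in mice, had 4951, 4484 and 3139 CPM. Control library 3 was lowest for Saa3, 1.58-fold under control library 1, and the mean was 4191 ± 940.3 CPM.

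Genes of different length can be compared only per length, here as CPM per kb of exon of each gene. Exon that no other annotated gene covers is called unshared below, and its share is given for named genes where it is under 90%. On that scale the order of these 4 genes was Saa3 at 1608 ± 361 CPM per kb, Fn1 at 423 ± 71.7 CPM per kb, Acta2 at 247 ± 23.1 CPM per kb and Cald1 at 118 ± 2.43 CPM per kb. The ranges of the 3 libraries overlapped for no neighbouring pair in that order. The median expressed gene had 7.4 CPM per kb.

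The promoter of Acta2 is shown because serum response factor binds CArG boxes, a CC and a GG around an AT-rich core, in the promoters of contractile genes. The sequence is the 250 bases before the start annotated by RefSeq (GRCm38.p6, chr19:34255374-34255623, minus strand), 5′ to 3′, with CArG boxes in capitals. A box here is CC, 6 bases with at most 1 G or C among them, and GG, which reads the same way on both strands.
Acta2: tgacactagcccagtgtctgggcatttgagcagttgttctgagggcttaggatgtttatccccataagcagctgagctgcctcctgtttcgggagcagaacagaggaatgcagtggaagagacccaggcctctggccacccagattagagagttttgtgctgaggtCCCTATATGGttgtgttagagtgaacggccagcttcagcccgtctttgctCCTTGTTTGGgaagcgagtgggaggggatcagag
The window held 2 such boxes, whose first bases lie 84 and 34 bases before the annotated start, and 8.59% of 32841 RefSeq promoter windows of the same length held at least 1. The match is a description of the letters and not of binding. The RefSeq start lies inside the span that the count table gives for Acta2.

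The serum amyloid genes are shown side by side because close neighbours on chromosome 7 differed widely in level. Saa3 had 94458, 99493 and 53551 reads, whereas its paralogs Saa1 and Saa2, which are liver acute-phase genes, had 2, 6 and 2 reads and 5, 7 and 3 reads. Saa1 thus had 0.164 ± 0.0922 CPM and Saa2 0.251 ± 0.0704 CPM, close to the level of 3 counts in these libraries, which was 0.157, 0.135 and 0.176 CPM. A gene without a count can be present up to that level. The promoters below are the 250 bases before the RefSeq start in GRCm38.p6 (Saa3 chr7:46715677-46715926, minus strand, Saa1 chr7:46742981-46743230, minus strand, and Saa2 chr7:46751583-46751832, plus strand). Capitals mark matches on either strand to TTNNGNAA, the letters of a binding motif for C/EBP factors, which drive acute-phase genes.
Saa3: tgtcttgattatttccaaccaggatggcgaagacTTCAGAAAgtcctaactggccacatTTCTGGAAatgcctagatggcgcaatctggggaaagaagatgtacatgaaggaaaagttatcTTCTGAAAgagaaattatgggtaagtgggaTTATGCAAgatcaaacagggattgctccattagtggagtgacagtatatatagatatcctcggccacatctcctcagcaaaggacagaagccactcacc
Saa1: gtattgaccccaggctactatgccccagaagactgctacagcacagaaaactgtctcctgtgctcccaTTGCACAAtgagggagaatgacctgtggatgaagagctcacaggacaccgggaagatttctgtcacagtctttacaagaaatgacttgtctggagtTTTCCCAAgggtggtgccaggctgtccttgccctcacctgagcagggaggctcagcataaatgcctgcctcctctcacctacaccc
Saa2: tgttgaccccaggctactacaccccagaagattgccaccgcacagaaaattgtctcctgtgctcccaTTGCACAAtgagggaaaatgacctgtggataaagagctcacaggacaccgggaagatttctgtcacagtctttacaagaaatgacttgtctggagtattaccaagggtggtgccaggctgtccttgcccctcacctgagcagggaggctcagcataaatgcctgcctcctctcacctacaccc
The Saa3 window held 4 matches, the Saa1 window 2 and the Saa2 window 1, and 36.9% of the 32841 promoter windows held at least 1. The share of windows with more than 1 match was not computed. These matches also describe letters and not binding, and their relation to the levels was not tested. The Saa1 and Saa2 windows were identical at 94.8% of aligned positions, against 52.2% between Saa3 and Saa1 and 52.4% between Saa3 and Saa2. The Saa genes are similar to each other, so reads that fit more than 1 of them could have been split or lost in counting.

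Genes of protein synthesis, energy metabolism and the cytoskeleton made up most of the 25 rows with the highest CPM. COX1, the mitochondrial gene of cytochrome c oxidase subunit I, was the highest at 12646, 13718 and 11042 CPM. Control library 2 was highest for COX1 and control library 3 lowest, and the same order held for the mitochondrial genes CYTB at 4035, 4694 and 3533 CPM and ND1 at 2655, 3449.9 and 2261 CPM. The 30 rows of the mitochondrial genome together took 2.78% (Wilson 95% interval 2.77% to 2.79%), 3.23% (3.22% to 3.24%) and 2.37% (2.37% to 2.38%) of counts. The 81 cytosolic ribosomal protein genes took 5.53% (5.52% to 5.54%), 6.33% (6.32% to 6.34%) and 5.10% (5.09% to 5.11%). Eef1a1, which delivers aminoacyl-tRNA to the ribosome, ranked 2 at 7950.1, 8427 and 8131 CPM and Eef2, which moves the ribosome along the messenger, had 4652, 4343 and 5163 CPM. The glycolytic enzyme gene Gapdh had 4396, 4183 and 4729.9 CPM and the chaperone gene Hsp90ab1 3667 ± 84.7 CPM. The libraries lay within 1.06-fold for Eef1a1 and 1.04-fold for Hsp90ab1. The intermediate filament gene Vim had 2529 ± 174 CPM and the actin crosslinker gene Flna 1964 ± 169 CPM. Secreted proteins among the 25 were Fn1, Saa3, the matrix phosphoprotein osteopontin (Spp1) at 2833 ± 93.0 CPM, the elastic-fibre protein fibulin 2 (Fbln2) at 2095 ± 297 CPM, galectin 1 (Lgals1) at 2129 ± 346 CPM and the lysosomal protein prosaposin (Psap) at 2028 ± 156 CPM.

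**Figure D1:**
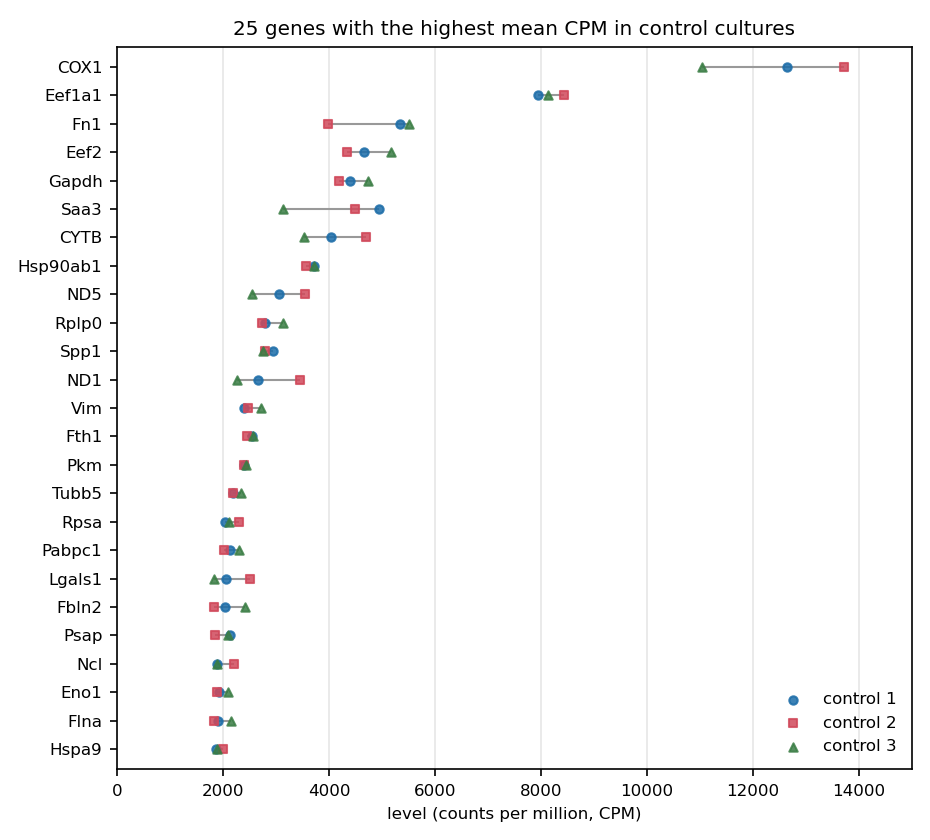
Levels in CPM of the 25 genes with the highest mean, with 1 point per control library and a line from the lowest to the highest library. COX1 reached 13718 CPM in control library 2, Fn1 was lowest in control library 2 and Saa3 lowest in control library 3.

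The label of vascular smooth muscle was checked against 23 genes of differentiated smooth muscle, of which 21 have a row. Of these 21, 14 were expressed (66.7%, against 50.5% of all rows), with a median of 4.50 CPM. Acta2 led the list, followed per length by enteric smooth muscle actin (Actg2) at 77.6 ± 2.80 CPM per kb and the small heat shock protein gene Hspb6 at 23.7 ± 1.96 CPM per kb. Smtn, which encodes smoothelin, a protein of contractile smooth muscle, had 72.3, 62.8 and 81.8 CPM (74.8% of exon unshared). Cnn1, which encodes calponin 1, had 27.3, 32.0 and 31.8 CPM. These genes lay well inside the measured range in every library.

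The other genes of the contractile state named in this paragraph were lower, at averages between 0.0520 and 4.50 CPM. Of them, Myh11, Mylk, Lmod1 and Tagln are defining genes, and Des and Itga8 are not. Myh11, which encodes the smooth muscle myosin heavy chain, had 2, 8 and 4 reads, or 0.105, 0.361 and 0.235 CPM. Mylk, which encodes myosin light chain kinase, had 10, 10 and 14 reads (75.3% of exon unshared). Lmod1, the leiomodin gene, had 84, 116 and 66 reads, or 4.40, 5.23 and 3.87 CPM. Tagln, the transgelin gene, had 34, 32 and 20 reads, or 1.78, 1.44 and 1.17 CPM, but 32.1% of its exon is unshared and reads in shared stretches may not have been counted, so its level may be a lower estimate. The desmin gene Des had 0.677 ± 0.301 CPM and the integrin alpha-8 gene Itga8 1 read in each library. Lmod1 and Tagln thus reached 1 CPM in every library, while Myh11, Mylk, Des and Itga8 stayed under it in every library. In bulk RNA, fewer cells of a type and less RNA per cell cannot be told apart. Marker levels therefore give neither the share of contractile cells nor the state of each cell.

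All 33 of 33 analysed genes of the actomyosin and focal adhesion list were expressed, with a median of 351 CPM and a summed level of 19377, 19133 and 20842 CPM. The cytoplasmic actin genes Actb and Actg1 had 711 ± 38.7 CPM per kb and 548 ± 55.7 CPM per kb, higher per length than Acta2 in each library. Vim had 533 ± 36.7 CPM per kb and the actin-sequestering thymosin gene Tmsb10 493 ± 57.2 CPM per kb. The non-muscle myosin gene Myh9 had 143 CPM per kb, against 0.0307 CPM per kb for Myh11. Tpm1, which encodes tropomyosin 1, had 621 ± 21.4 CPM and Myl9, the regulatory light chain of smooth muscle and non-muscle myosin, had 102 ± 6.23 CPM.

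Markers of other cell types were read in the same way. The number expressed in each list from here on is to be read against 50.5% of all rows. Of 15 fibroblast genes, 12 were expressed, with a median of 76.6 CPM and a summed level of 3758, 3202 and 3717 CPM. The type I collagen genes Col1a1 and Col1a2 and the proteoglycan gene Dcn, which cultured smooth muscle cells also make, carried most of that sum, and the platelet-derived growth factor receptor gene Pdgfra had 85.4, 65.8 and 78.4 CPM. Dpt, which encodes dermatopontin, had 0, 3 and 3 reads (22.8% of exon unshared). The Thy1 surface antigen gene had 143 ± 4.80 CPM, within 1.07-fold between libraries. Of 11 pericyte genes, 7 were expressed, led by Pdgfrb at 166 ± 27.9 CPM, Cspg4 at 34.7 ± 7.27 CPM and Rgs5 at 12.6 ± 3.10 CPM, while Kcnj8 had 13, 6 and 4 reads and Abcc9 1, 1 and 0 reads. Both genes, which encode subunits of a potassium channel and mark pericytes among mural cells, were thus under 1 CPM.

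Of 12 mesothelial genes, 5 were expressed, and their summed level was 167, 186 and 176 CPM. Msln, which encodes mesothelin, had 111, 123 and 121 CPM and the keratin gene Krt19 had 41.3, 47.3 and 44.7 CPM. The 3 libraries lay within 1.12-fold for Msln and 1.15-fold for Krt19. The uroplakin gene Upk3b had 0.734, 1.53 and 1.23 CPM, Upk1b 1.44 ± 0.145 CPM and the transcription factor gene Wt1 9, 4 and 3 reads, or 0.276 CPM on average and 0.178 CPM without control library 1. The mesothelial list was therefore carried by Msln and Krt19, while Lrrn4, which is not a defining gene, had no count.

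Blood and vessel lining markers were low apart from single genes. Of 14 macrophage and leukocyte genes, 5 were expressed, with a summed level of 78.3, 77.7 and 68.0 CPM. Most of that sum was Cd14, an endotoxin co-receptor gene, at 56.0, 57.7 and 50.4 CPM. Among the defining genes, Cd68 had 5.89 ± 0.274 CPM and Csf1r (84.9% of exon unshared) 2.44 ± 0.688 CPM, whereas Ptprc had 1, 4 and 0 reads, Adgre1 0, 1 and 0 reads and Tyrobp 2, 0 and 0 reads. Of 13 endothelial genes, 3 were expressed, and most of their sum was Vwf, the von Willebrand factor gene, at 22.5, 17.4 and 28.8 CPM, a 1.66-fold span. Pecam1 had 4, 16 and 1 reads, Kdr 3, 12 and 1 reads and Cdh5 3, 5 and 4 reads. Most reads of Pecam1 and Kdr came from control library 2, without which their means were 0.134 CPM and 0.108 CPM, against 0.330 CPM and 0.252 CPM with it. Of 11 epithelial genes, 2 were expressed, Cdh1 among them at 5.45 ± 0.871 CPM, while Epcam had 0, 1 and 0 reads. Of 8 adipocyte genes, 4 were expressed, with Fabp4 at 16.6 ± 2.94 CPM and with 1 read each of Adipoq and Plin1, both in control library 2. Of 7 neural and glial genes and 6 striated muscle genes, 1 each was expressed, Mbp at 10.5 ± 0.844 CPM and Tnnt2 at 5.42 CPM, and Sox10 had no count. The only sex-linked gene analysed, Uty, had 2, 1 and 0 reads.

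**Figure D2:**
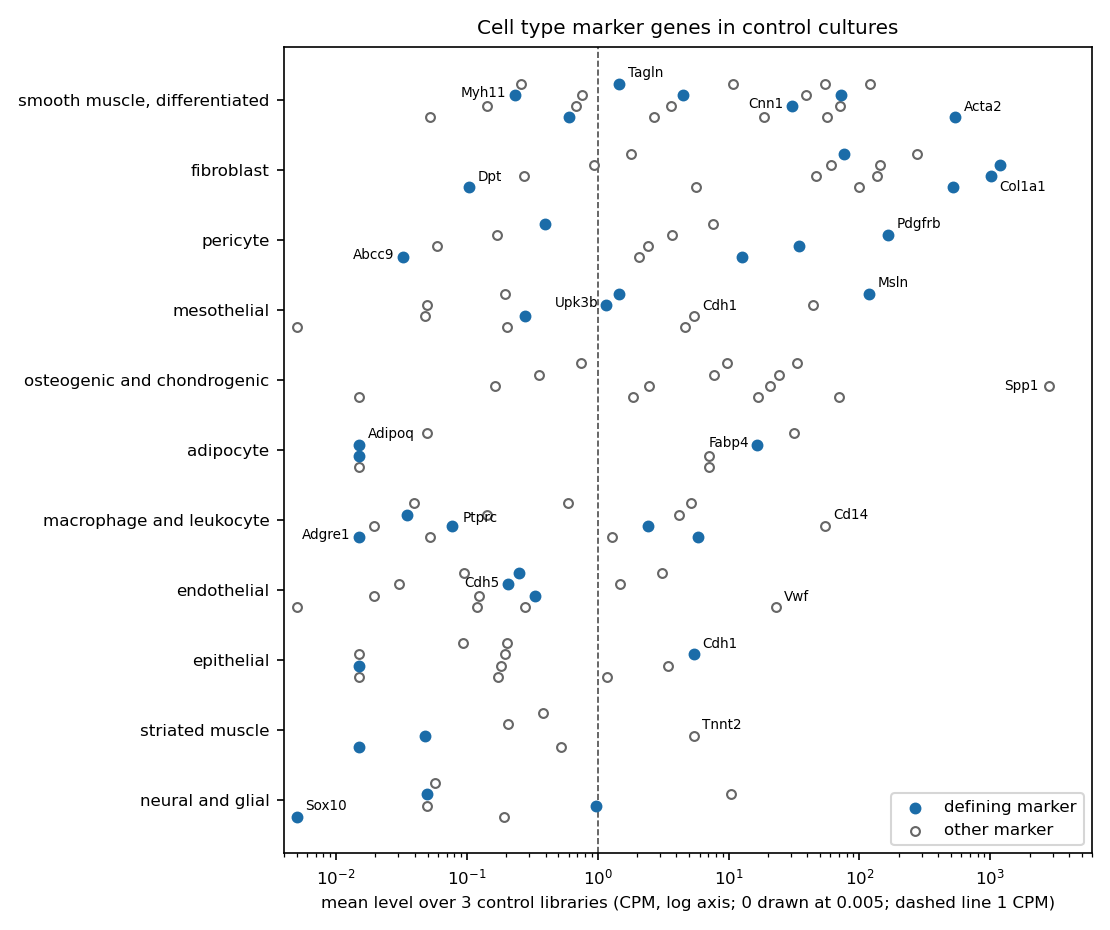
Mean CPM over the 3 control libraries on a log axis for the marker genes of 11 cell types, with 1 point per gene, filled for defining genes, and a dashed line at 1 CPM. Acta2 and Cnn1 lie right of the line and Myh11 left of it, fibroblast genes reach above 1000 CPM, and the defining endothelial genes lie left of the line.

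Of 14 osteogenic and chondrogenic genes, 10 were expressed. Spp1 carried the list at 2939, 2795 and 2765 CPM, and 81.2% of its exon is unshared. The libraries lay within 1.06-fold for Spp1. Bmp4, a bone morphogenetic protein gene, had 70.2 ± 8.21 CPM, Mgp, which encodes the calcification inhibitor matrix Gla protein, had 7.74 ± 1.95 CPM, and Sox9, a cartilage transcription factor gene, had 20.6 ± 2.77 CPM. Runx2 had 33.3 ± 3.07 CPM (80.8% of exon unshared), while the later bone genes Sp7 and Bglap had 0.747 and 0.0150 CPM.

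Matrix genes differed widely in level. Of 42 collagen genes, 25 were expressed (59.5%, near the 50.5% of all rows), with a median of 5.40 CPM. Their summed level was 3950, 3406 and 4206 CPM, and Col1a1 and Col1a2 carried most of it. The fibrillar genes led per length. Col1a1 had 1056, 850.0 and 1118 CPM, or 154 ± 21.4 CPM per kb, and Col1a2 had 1226, 1042 and 1271 CPM, or 94.9 ± 9.77 CPM per kb. For Col1a1 and Col1a2 control library 2 was the lowest. Col5a2, a minor chain of collagen fibrils, had 62.2 ± 5.27 CPM per kb and Col8a1, a short-chain collagen of the vessel wall, had 28.1 ± 1.43 CPM per kb. Type III collagen, which accompanies type I in arteries, was lower, with Col3a1 at 137 ± 12.4 CPM in all and 14 CPM per kb. The basement membrane gene Col4a1 had 59.0 ± 6.75 CPM (76.3% of exon unshared).

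Of 39 genes of elastic fibres and matrix glycoproteins, 32 were expressed, with a median of 155 CPM. Per length the first were Spp1 at 1719 ± 56.5 CPM per kb, the insulin-like growth factor binding protein gene Igfbp7 at 568 ± 64.5 CPM per kb, Fn1 at 423 ± 71.7 CPM per kb and Fbln2 at 329 ± 46.7 CPM per kb. Thbs1, which encodes thrombospondin 1, followed at 237 ± 32.8 CPM per kb. Elastic-fibre genes split widely. Eln, the elastin gene, had 0, 0 and 4 reads, whereas the microfibril gene Fbn1 had 367, 300.3 and 350.3 CPM and the fibulin gene Fbln5, needed for elastic-fibre assembly, had 308 ± 21.0 CPM. Fbn1 has 79.9% of its exon unshared.

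Of 22 proteoglycan genes, 17 were expressed. Bgn, which encodes biglycan, had 1689, 1466 and 1618 CPM, or 261 ± 18.7 CPM per kb, and was followed by the syndecan genes Sdc1 at 112 ± 2.15 CPM per kb and Sdc4 at 99.6 ± 11.1 CPM per kb and by Dcn at 89.2 ± 12.7 CPM per kb. The Sdc1 libraries lay within 1.04-fold, whereas the perlecan gene Hspg2 had 636, 447 and 702 CPM and spanned 1.57-fold. Hspg2 was lowest in control library 2. Vcan, the versican gene, had 260.1 ± 13.2 CPM.

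Of 44 matrix enzyme and inhibitor genes, 42 were expressed, with a median of 104 CPM. Timp2, which encodes an inhibitor of metalloproteinases, and Serpinf1, which encodes the secreted serpin PEDF, had 353 ± 16.4 CPM per kb and 339 ± 34.7 CPM per kb. The metalloproteinase gene Mmp3, which encodes stromelysin 1, had 623, 586 and 548 CPM, or 325 ± 20.8 CPM per kb, and the collagen chaperone gene Serpinh1 had 270.2 ± 16.4 CPM per kb. Of the other proteases, Mmp13, a collagenase gene, had 415 ± 35.3 CPM, Mmp2, a gelatinase gene, 59.7 ± 3.74 CPM, and Mmp9, the other gelatinase gene, 0.536 ± 0.0894 CPM. Mmp3 and Mmp13 thus exceeded 300 CPM and Mmp9 stayed under 1 CPM in every library. The crosslinking enzyme gene Lox had 812 ± 49.8 CPM (79.2% of exon unshared).

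**Figure D3:**
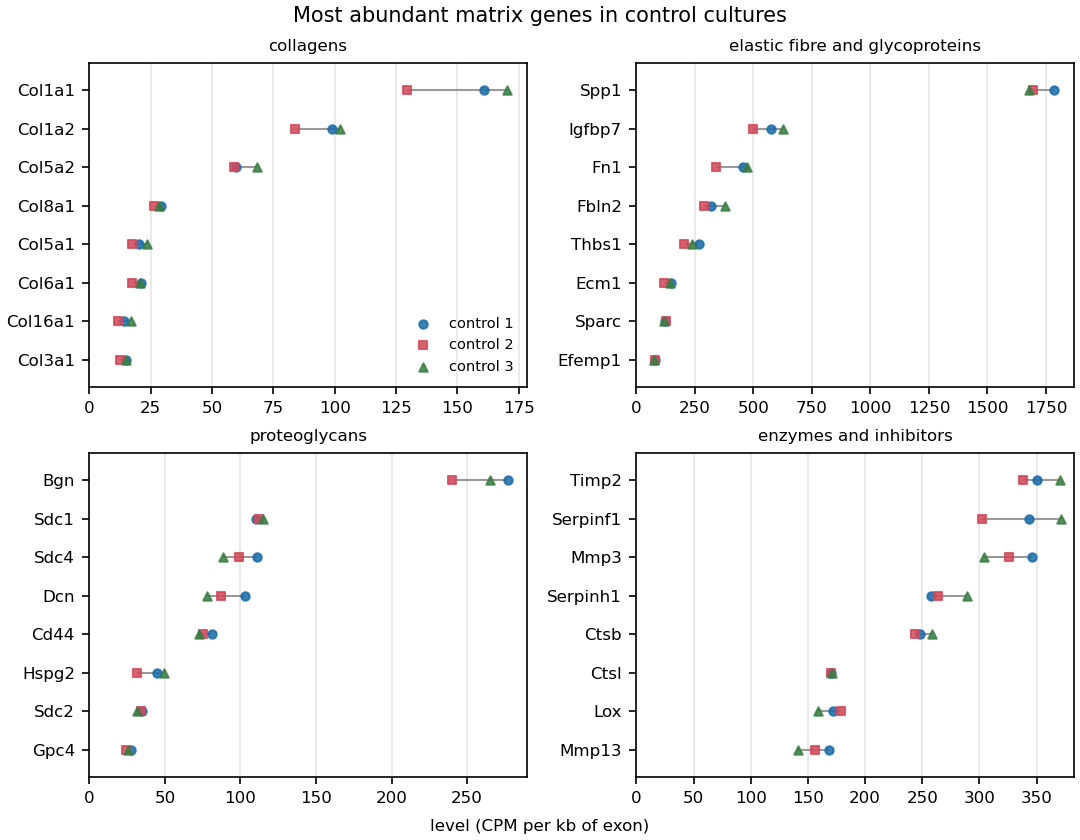
Levels in CPM per kb of exon of the 8 highest genes in each of 4 matrix lists, with 1 point per control library and a line from the lowest to the highest. Spp1 lies highest at 1719 CPM per kb on average, and control library 2 is lowest for Col1a1, Col1a2, Igfbp7 and Fn1.

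Among the lists of cell surface receptors, the share of genes expressed was 66.7% to 93.8%, against 50.5% of all rows. Of 34 genes, the receptor tyrosine kinases and Igf2r, 26 were expressed (76.5%), with a median of 18.9 CPM. Axl, the receptor for the vitamin K-dependent ligand GAS6, had 1376, 1311 and 1512 CPM, or 278 ± 20.4 CPM per kb. The next was Ddr2, a receptor for fibrillar collagen, at 48.6 ± 0.927 CPM per kb, followed by Igf2r, a scavenger receptor for insulin-like growth factor II without kinase activity, at 32.6 ± 2.11 CPM per kb and Pdgfrb at 30.3 ± 5.09 CPM per kb. The libraries of Igf2r, Pdgfrb and the fibroblast growth factor receptor gene Fgfr1, at 30.3 ± 4.52 CPM per kb, overlapped, so their order is not resolved. Of the endothelial receptors, Tek had 1.48 ± 0.119 CPM, Kdr few reads as given above and Tie1 no count.

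Of 42 genes of G protein-coupled receptors, 28 were expressed, with a median of 6.91 CPM. F2r, the thrombin receptor gene, had 317, 338 and 333 CPM, or 98.7 ± 3.37 CPM per kb. Ackr3, a scavenger receptor for CXCL12, had 34.8 ± 1.75 CPM per kb, Smo, the Hedgehog signal transducer, 34.0 ± 5.02 CPM per kb, and Gprc5a, an orphan receptor induced by retinoic acid, 32.7 ± 3.65 CPM per kb. The libraries of Ackr3, Smo and Gprc5a overlapped. Agtr1a, the main angiotensin II receptor gene of mouse arteries, had 2, 0 and 0 reads, which does not exceed the level of 3 counts in any library. The other angiotensin and the endothelin A receptor genes were not analysed here. Agt, the angiotensinogen gene, had 2.86 ± 1.59 CPM.

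All but 1 of the 13 receptor genes for transforming growth factor beta and bone morphogenetic proteins were expressed. Bmpr1a, a receptor for bone morphogenetic proteins, had 21.0 ± 1.60 CPM per kb and Tgfbr3, the co-receptor betaglycan, 17.6 ± 2.03 CPM per kb, while Tgfbr1 and Tgfbr2, the pair that binds transforming growth factor beta, had 62.5, 71.5 and 61.7 CPM and 75.4, 68.2 and 69.4 CPM. Of 25 integrin genes, 18 were expressed. Itgb1, the common beta-1 subunit of matrix receptors, had 1323, 1435 and 1293 CPM, or 331 ± 18.3 CPM per kb, and was followed by Itgb5, a subunit of a vitronectin receptor, at 56.0 ± 5.47 CPM per kb and by Itga5, the fibronectin receptor subunit, at 46.8 ± 6.71 CPM per kb. The libraries lay within 1.11-fold for Itgb1. Itga8, a subunit typical of contractile smooth muscle, was near 0 as given above.

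Of 35 cytokine and innate immune receptor genes, 31 were expressed (88.6%). Tnfrsf12a, the receptor for the cytokine TWEAK, had 444, 474 and 447 CPM, or 236 ± 8.49 CPM per kb. Ltbr, the lymphotoxin beta receptor, had 56.4 ± 6.13 CPM per kb, Tnfrsf1a, the main receptor for tumour necrosis factor, 52.3 ± 4.20 CPM per kb, and the bacterial lipoprotein receptor Tlr2 36.3 ± 6.89 CPM per kb. Tlr2 was highest in control library 1, at 133, 99.7 and 95.5 CPM. Of 32 Notch, Wnt, guidance and endocytic receptor genes, 30 were expressed. Lrp1, an endocytic receptor for proteases and lipoproteins, had 1859, 1301 and 1854 CPM, or 94.3 ± 18.1 CPM per kb, and the semaphorin receptor gene Plxnb2 60.7 ± 8.41 CPM per kb. Notch3, a receptor that maintains arterial smooth muscle, had 7.58 ± 1.40 CPM (55.2% of exon unshared), against 115 ± 20.8 CPM for Notch2.

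Of 43 nuclear receptor genes, 28 were expressed, with a median of 7.73 CPM. Rarg, a retinoic acid receptor, had 44.1 ± 5.79 CPM per kb, the immediate-early receptor gene Nr4a1 33.2 ± 4.00 CPM per kb, the glucocorticoid receptor gene Nr3c1 23.2 ± 0.607 CPM per kb and the retinoid X receptor gene Rxrb 19.2 ± 2.27 CPM per kb. Nr3c1 varied least of the 4, at 177, 183 and 174 CPM.

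Of 19 transcription factor and coactivator genes of the smooth muscle programme, 16 were expressed (84.2%), with a median of 25.6 CPM. Klf4, a factor that lowers contractile genes when smooth muscle cells switch phenotype, had 206, 183 and 248 CPM, or 69.6 ± 10.9 CPM per kb, and was the highest of the list in each library. Srf, which encodes serum response factor, had 66.9, 60.3 and 76.0 CPM, but none of its exon is unshared, so its count rests on reads the authors assigned in a shared span. Its coactivator Mrtfa had 79.6, 61.0 and 85.2 CPM, and Mrtfb had 1.74 ± 0.232 CPM (7.73% of exon unshared). Myocd, which encodes myocardin, the coactivator specific to heart and smooth muscle, had 24, 13 and 21 reads, or 1.26, 0.586 and 1.23 CPM. Mrtfa was thus well above Myocd in all 3 libraries. Prdm6, a repressor described in smooth muscle, had 15.0 ± 2.16 CPM per kb, and Gata6, a factor of vessel smooth muscle, 55.4 ± 6.80 CPM.

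Of 50 mesenchymal, cardiovascular and patterning factor genes, 33 were expressed. Osr1 had 45.9 ± 3.98 CPM per kb, Tcf3 39.1 ± 7.76 CPM per kb, Nfic 36.0 ± 6.22 CPM per kb and Sox4 (42.6% of exon unshared) 31.5 ± 2.87 CPM per kb. Osr1 marks embryonic mesenchyme, Tcf3 encodes a partner of many basic helix-loop-helix factors, Nfic belongs to the nuclear factor I family and Sox4 to the SRY-related family. Their library ranges overlapped between neighbours in that order. Of 17 HOX genes analysed, which encode factors of position along the body axis, 11 were expressed. Hoxb9 had 104, 92.4 and 111 CPM, Hoxb7 40.1, 38.5 and 42.8 CPM, Hoxc4 24.4, 20.5 and 25.3 CPM and Hoxa7 (79.6% of exon unshared) 25.8, 22.4 and 27.1 CPM. The other 6, Hoxb13, Hoxc11, Hoxa10, Hoxc13, Hoxc10 and Hoxa11, each averaged under 0.1 CPM.

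Of 47 stress and inflammatory factor genes, 44 were expressed (93.6%), with a median of 72.0 CPM. Atf4, the main factor of the integrated stress response, had 604, 598 and 649 CPM, or 262 ± 11.9 CPM per kb, and varied by 1.09-fold. Nfe2l1, which drives proteasome genes, had 144 ± 11.1 CPM per kb, Junb, an AP-1 subunit, 109.6 ± 17.2 CPM per kb, and Atf5, another stress-response factor, 101 ± 9.19 CPM per kb (87.1% of exon unshared). Cebpb, an acute-phase factor, had 109, 81.4 and 139.9 CPM (39.6% of exon unshared). Of 49 growth and signalling factor genes, 46 were expressed. Hmga1, an architectural chromatin protein of proliferating cells, had 1365, 1173 and 1798 CPM, or 680.3 ± 151 CPM per kb, highest in control library 3 and lowest in control library 2. Id3 and Id1, targets of bone morphogenetic protein signalling, had 124 ± 8.65 CPM per kb and 107 ± 1.59 CPM per kb, and the p53 gene Trp53 70.2 ± 5.12 CPM per kb. Arid3a itself, the gene targeted in the other libraries, had 375, 370 and 391 reads, or 19.7, 16.7 and 22.9 CPM.

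**Figure D4:**
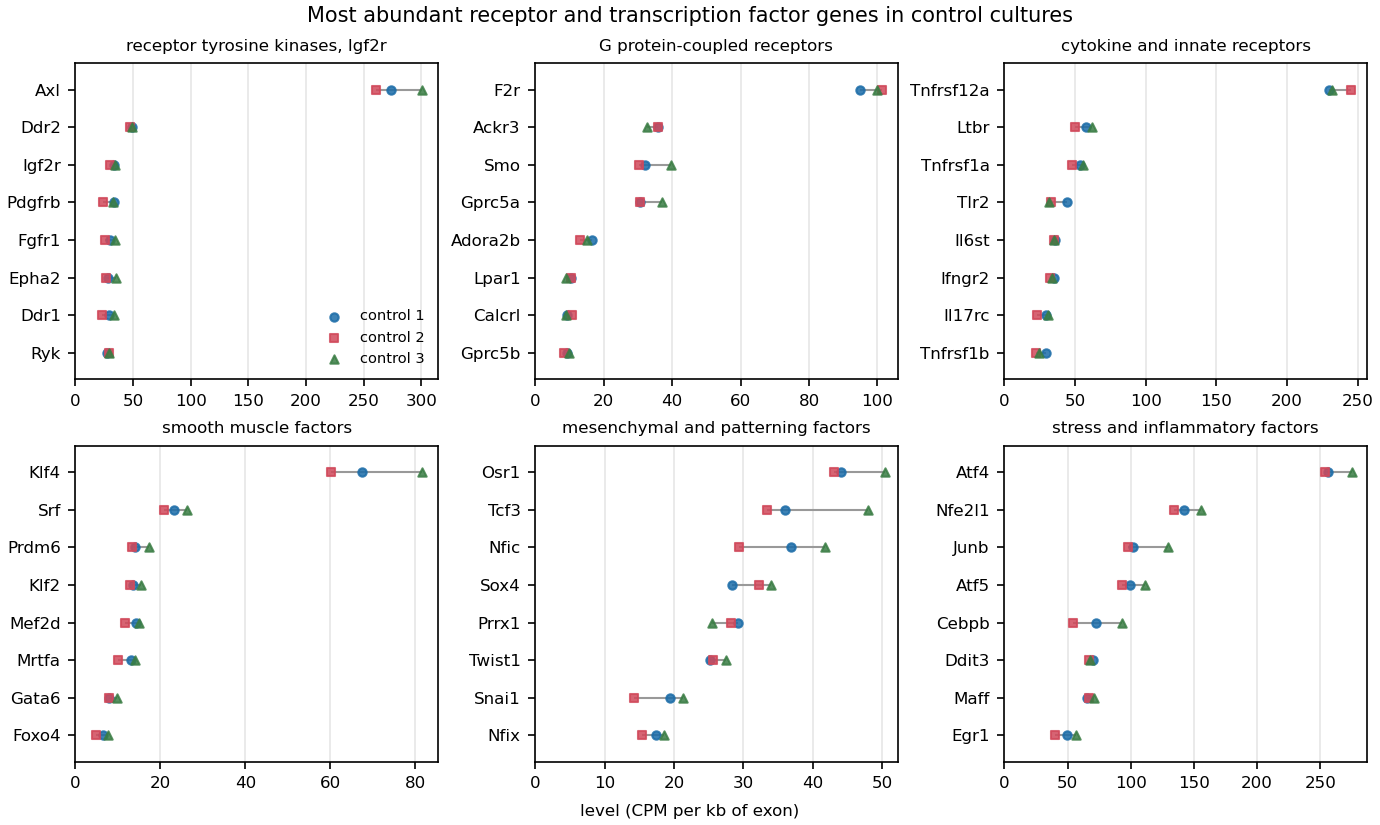
Levels in CPM per kb of exon of the 8 highest genes in each of 6 receptor and transcription factor lists, with 1 point per control library and a line from the lowest to the highest; each panel has its own axis. Axl, F2r, Tnfrsf12a, Klf4 and Atf4 lie clear of the next gene in their panels in all 3 libraries.

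Of 70 growth factor and binding protein genes, 52 were expressed (74.3%). The first per length were Igfbp7, the bone morphogenetic protein antagonist gene Grem1 at 286 ± 9.92 CPM per kb, Ccn1, a matricellular target of YAP signalling, at 172 ± 12.2 CPM per kb, and Vegfa, the angiogenic growth factor gene, at 132 ± 16.8 CPM per kb. Grem1 had 1231, 1149.7 and 1182 CPM, with the libraries within 1.07-fold. Among ligands of smooth muscle growth and contraction, Tgfb1 had 82.9 ± 16.1 CPM, the endothelin gene Edn1 5.55 ± 1.75 CPM and Pdgfb 1.19 ± 0.304 CPM. Edn1 and Pdgfb have 89.9% and 72.2% of their exon unshared.

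Acute-phase, chemokine and cytokine genes were abundant and several of them differed between the libraries. Of 45 analysed genes, 35 were expressed (77.8%), with a median of 29.4 CPM, and their summed level was 15751, 13897 and 12403 CPM. After Saa3, the highest per length were Ccl7, a monocyte chemokine gene, at 1287 ± 126 CPM per kb, Lcn2, an iron-trapping lipocalin gene, at 579.5 ± 74.6 CPM per kb, and Cxcl5, a neutrophil chemokine gene, at 400.1 ± 72.6 CPM per kb. Csf1, which encodes macrophage colony-stimulating factor, had 1647 ± 166 CPM. Between libraries, 449 of 10061 genes with a mean of at least 100 counts (4.46%) differed by 1.5-fold or more from the lowest to the highest library. That share was 13.9% among genes with a mean of 100 to 300 counts and 1.08% to 4.43% in the groups above. In the acute-phase, chemokine and cytokine list this held for 6 of 32 such genes (18.8%), namely Saa3, Il6, Ccl5, Ccl8, Csf2 and Cx3cl1. Il6, which encodes interleukin 6, had 165, 132 and 100.1 CPM, Ccl5, a T cell and monocyte chemokine gene, 148, 102 and 81.8 CPM, and Csf2, a granulocyte and macrophage growth factor gene, 9.70, 6.71 and 5.28 CPM (41.1% of exon unshared). All 6 were highest in control library 1, and 5 of them, all but Cx3cl1, were lowest in control library 3. Cx3cl1, the fractalkine gene, had 63.4, 39.7 and 45.7 CPM, lowest in control library 2.

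Of 37 interferon-stimulated genes, 34 were expressed (91.9%), with a median of 95.6 CPM and a summed level of 5153, 4567 and 4241 CPM. Ifitm3, which blocks virus entry, had 732 ± 90.5 CPM per kb, the ubiquitin-like modifier gene Isg15 373 ± 69.7 CPM per kb, the virus-tethering gene Bst2 328 ± 39.0 CPM per kb and the class I antigen gene H2-D1 166 CPM per kb. Isg15 was lowest in control library 3, at 314, 311 and 221 CPM. Of the 32 with a mean of at least 100 counts, only Psmb8 (44.5% of exon unshared) spanned 1.5-fold.

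Cell cycle genes were expressed in every library. Of 37 analysed proliferation genes, 36 were expressed (97.3%), with a median of 155 CPM and a summed level of 7865, 8069 and 7996 CPM. Of the 36 with a mean of at least 100 counts, 0 spanned 1.5-fold, and their median coefficient of variation, the SD over the mean, was 5.03%, against 7.87% over all 10061 genes. Spread depends on level: over all genes with a mean of 1000 to 3000 counts the median was 6.71% and 1.28% spanned 1.5-fold, and with 3000 to 10000 counts these were 5.90% and 1.08%. The median proliferation gene lay at about the border of these groups, and the list is not set apart from genes of like level by these values. Pcna, the sliding clamp of DNA replication, had 444, 495 and 431 CPM, or 190.3 ± 14.2 CPM per kb, and Rrm2, which supplies deoxynucleotides, 105 ± 4.22 CPM per kb. Cdkn2a, which encodes the cell cycle inhibitors p16 and p19Arf, had 169.8, 148 and 146 CPM, or 132 ± 11.3 CPM per kb. The topoisomerase gene Top2a had 741 ± 36.7 CPM and the imprinted inhibitor gene Cdkn1c had no count.

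The spread between the 3 control libraries was larger than counting error for most genes. The median coefficient of variation over the 10061 genes was 7.87%, with an interquartile range of 4.77% to 12.1%. The value calculated for counting alone had a median of 3.40%, and 8589 genes lay above their own counting value. An SD from 3 libraries can exceed that value by counting alone, so 8589 is not a count of genes with added spread. The common biological coefficient of variation estimated by edgeR, the spread beyond counting, was 9.68%. Control libraries 2 and 3 differed most. In pairs, 338 genes differed by 1.5-fold or more between control libraries 2 and 3, 105 between 1 and 3 and 79 between 1 and 2. As a check for a library deposited more than once, chi-square values of the counts were 22.1, 8.85 and 10.5 per degree of freedom for these pairs, where counting error alone gives about 1. Of the 449 spanning genes, 226 were highest in control library 3, 148 in control library 2 and 75 in control library 1.

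The difference between control libraries 2 and 3 moved with the GC content and, less steeply, with the length of the transcripts. With the genes sorted into 5 equal groups by GC content, the median log2 ratio of control library 2 to the mean of the other libraries was 0.11 in the group of lowest GC and −0.20 in that of highest GC. The same ratio was −0.13 and 0.19 for control library 3, and 0.01 and −0.01 for control library 1. The share of spanning genes was 4.22%, 2.73%, 2.44%, 4.17% and 8.75% in the 5 groups from low to high GC. The transcripts of Fn1, Col1a1, Hspg2 and Hmga1, which were low in control library 2, had GC contents of 53.5%, 58.9%, 60.9% and 61.4%, and that of Saa3 had 48.4%. Single genes also went the other way. The ribosomal protein genes Rps15 (62.4% GC) and Rpl36 (60.8% GC) were highest in control library 2, at 930, 1036 and 838 CPM and 514, 598 and 438 CPM. With the genes sorted into 5 groups by transcript length instead, the median log2 ratio was 0.055 in the shortest and −0.073 in the longest group for control library 2, and −0.061 and 0.051 for control library 3. The share of spanning genes was 7.70% in the shortest group and 3.03% in the longest. The part of GC content and of length in the spread of single genes was not tested.

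**Figure D5:**
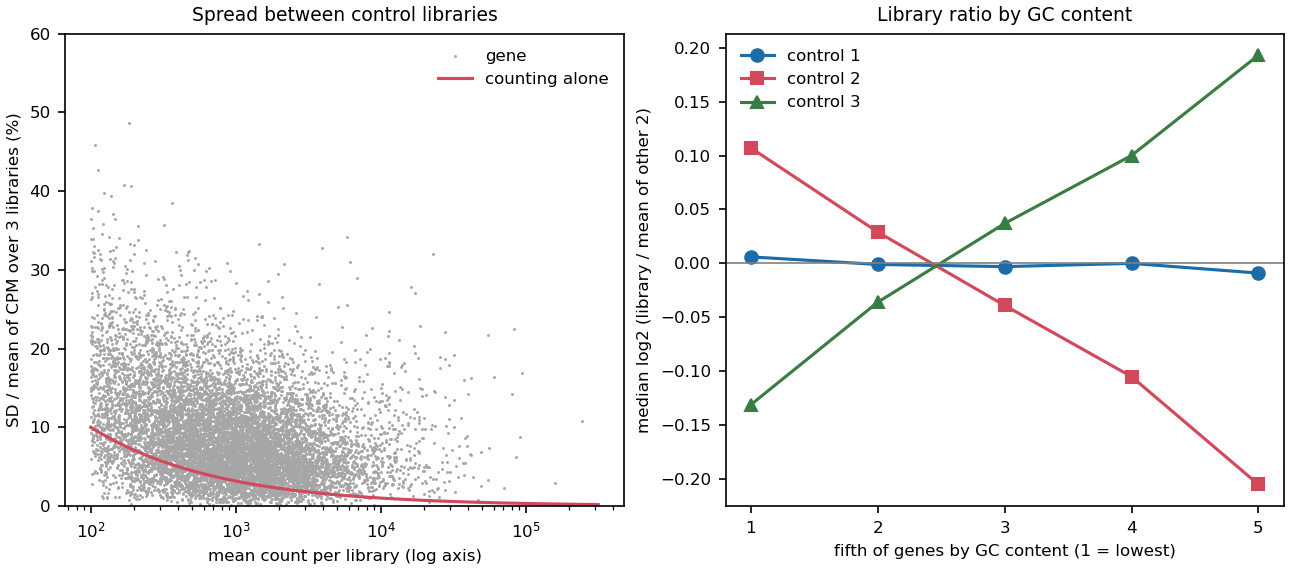
Left, the SD over the mean of CPM for 10061 genes against mean count per library (log axis), with the value that counting alone gives as a line. Right, the median log2 ratio of each control library to the mean of the other 2 in 5 equal groups of genes by GC content, from low to high. Control library 2 lies at 0.11 in the lowest and −0.20 in the highest group, control library 3 at −0.13 and 0.19.

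Genes that stood out in a single library were mostly of low level. Relative to the mean of the other libraries, control library 1 was highest for Ccl3, a macrophage chemokine gene, at 14.5, 7.84 and 5.75 CPM, and for the cornified-envelope gene Sprr1a, at 7.34, 4.82 and 3.69 CPM, the Wnt ligand gene Wnt5b, at 10.1, 6.17 and 5.75 CPM, and the ephrin receptor gene Epha3, at 7.34, 3.74 and 5.04 CPM. Control library 2 stood out for Gm28661 at 8.39, 13.7 and 6.27 CPM and Gm28437 at 5.66, 9.91 and 4.92 CPM, which lie close to each other on chromosome 1 in a nuclear copy of mitochondrial sequence. Control library 2 also had the highest mitochondrial share, and reads of such copies and of the mitochondrial genome could be exchanged in alignment, which was not tested. It stood out as well for S100a4, a calcium-binding protein gene of mesenchymal cells, at 5.19, 7.89 and 3.75 CPM (27.4% of exon unshared). Control library 3 stood out for Ppargc1a, a coactivator of mitochondrial biogenesis, at 3.56, 4.78 and 8.50 CPM, and for the linker histone gene H1f10, at 6.18, 5.99 and 11.0 CPM, and the pyrophosphate transporter gene Ank, at 13.3, 13.5 and 23.8 CPM. H1f10 and Ank have 38.0% and 11.7% of their exon unshared. With 3 libraries of 1 group, these are descriptions of single libraries, and no test applies.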

How the data were processed

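The deposited table of the authors holds unnormalised read counts, as whole numbers, with the position and a length of each gene. The submitters' processing notes name STAR 2.7.3a, featureCounts and the mm10 build, and the sources used here do not give the annotation or strand setting. In all 23197 rows of the deposited table the length equals the span of the gene, introns included, so counts may hold intronic reads, and reads in spans shared by genes may be lost. Genes without a row were not analysed here. GENCODE M21 (GRCm38) held 23134 of the identifiers, 22915 with the same span, and named 4530 of the 4577 rows without a symbol. It gave exon lengths and the share of exon covered by no other gene, which was under 90% for 20.9% of expressed genes and is printed for named genes under 90%.

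CPM were computed from the deposited counts and the column totals with Python 3.11.15 and pandas 2.3.3. Totals of 17057300 to 22189166 put 3 counts at 0.135 to 0.176 CPM. The dispersion was estimated with edgeR 4.0.16 in R 4.3.3 (TMM, filterByExpr, intercept only). The estimate was tested on simulated counts. Promoters came from RefSeq on GRCm38.p6. With a single group no groups were compared, and chi-square values between libraries only checked for repeated deposits, against counting error alone.

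The 34 gene lists (972 genes, 872 analysed) and the genes described were chosen with earlier results of these data known. Genes named are the 4 markers, the 25 with the highest CPM, the 4 highest per exonic length and the defining members of each list, and those among the 6 highest in a single library. Some genes that meet this rule are not reported here. Chosen after their values were seen were Agt, Agtr1a, Arid3a, Bglap, Ccl5, Ccl8, Cdkn1c, Cebpb, Col3a1, Col4a1, Csf1, Csf2, Cx3cl1, Des, Edn1, Eln, Fbln5, Fbn1, Fgfr1, Gata6, Hspg2, Il6, Itga8, Lox, Lrrn4, Mmp2, Mmp9, Mmp13, Myh9, Myl9, Notch2, Notch3, Pdgfb, Psmb8, Rpl36, Rps15, Runx2, Saa1, Saa2, Sp7, Tgfb1, Thbs1, Thy1, Tie1, Tpm1, Vcan and the 6 low HOX genes. Alternatives were other scalings, thresholds and filters, totals without mitochondrial genes, other gene lengths, genes with 90% of exon unshared, and each library left out in turn.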

Additional observations from a re-analysis of the deposited data

How the results depend on the processing

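The number of expressed genes stayed between 9895 and 12574 over the thresholds of 0.5 and 5 CPM and of 10 reads in every library, and between 11818 and 11863 with 1 library left out. With the mitochondrial genes removed, the share of the 20 most abundant genes was 6.38%, against 7.65% with them, and with 1 library left out it was 7.58% to 7.76%. The mitochondrial share was then 2.58% to 3.00%. Leaving out 1 library gave a median coefficient of variation of 5.64% to 8.35%, a biological coefficient of variation of 7.96% to 12.3%, and 79 to 338 genes spanning 1.5-fold in place of 449, namely 338 without control library 1, 105 without 2 and 79 without 3. Fewer libraries narrow such a span by construction. With no filter on low counts the median coefficient of variation was 18.9%. The spanning genes numbered 1471 at a mean of at least 20 counts, 128 at 500 counts and 16 at 2-fold. Of the 25 genes highest per exonic length, 20 to 25 stayed among the 25 under other lengths, with 1 library left out and over genes with 90% of exon unshared. Of 189 genes named by rule, 0 moved by more than 1 SD under TMM, RLE or upper quartile scaling, and 9 did with totals without mitochondrial genes. The mean CPM moved by over 1.5-fold for 6, 10 and 3 of them without control library 1, 2 and 3, all genes that averaged under 1 CPM, Pecam1 and Kdr among them. The level per length moved by over 1.5-fold for 33 with the longest transcript and for 156 with the length deposited. No paired analysis was possible because a single group was used. Depth limits genes near 3 counts, such as Myh11, Saa1, Eln and Agtr1a.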
